A study of Homo sapiens with 6 samples.

Results

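The transcripts described here are 10 spliced, non-coding hosts of small nucleolar RNAs (snoRNAs): GAS5, ZFAS1, SNHG1, SNHG3, SNHG5, SNHG6, SNHG8, SNHG12, SNHG15 and SNHG16. They were taken by symbol from a table of 26364 genes, and all 10 passed the filter on low counts that left 8070 genes for testing. RNA came from HEK293T cells, an established line derived from human embryonic kidney, and every library of both groups came from cells given 200 nM okadaic acid for 3 h, so no group without the drug enters the comparison. Okadaic acid is a phosphatase inhibitor that lets phosphorylated UPF1 (p-UPF1) build up. The 3 p-UPF1 IP libraries (replicates 3, 6 and 9) hold RNA co-immunoprecipitated with an antibody against p-UPF1, and the 3 libraries titled pre-IP (replicates 1, 4 and 7) are the control. The pre-IP libraries also carry a rabbit IgG antibody label, so the labels leave unclear whether the control is RNA taken ahead of the IP or RNA of a mock IP. Nothing in the labels says that the replicates were separate cultures, so p-values measure no more than how these libraries vary, which could be technical variation.

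A snoRNA host gene is transcribed into a precursor whose introns hold snoRNAs. The introns are cut out and trimmed to snoRNAs, which guide the modification or cleavage of ribosomal RNA, while the joined exons leave the nucleus as a long RNA with no long reading frame. In the cytoplasm ribosomes meet short reading frames on that RNA, stop early, and leave exon junctions downstream. Such junctions recruit the machinery of nonsense-mediated mRNA decay (NMD), in which the helicase UPF1 is phosphorylated, and host RNAs such as GAS5 are known to rise when translation or NMD is blocked. Many hosts belong to the terminal oligopyrimidine class, whose RNAs begin with a run of C and T and whose translation follows growth signals.

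The reading frames of the hosts were read from GENCODE release 29 transcripts (GRCh38), taking for each host the transcript with the most exons that is not typed as an intron-retaining form. The first frame that opens with ATG held from 4 codons (SNHG8) to 117 codons (ZFAS1), stop codon not counted. In 9 of the 10 hosts at least 1 exon junction lay more than 50 nt downstream of that frame's stop, the distance usually given for NMD. The count of such junctions was 7 in GAS5, 6 in SNHG1, 5 in SNHG5 and in SNHG12, 4 in ZFAS1, 3 in SNHG6 and in SNHG16, 2 in SNHG8, 1 in SNHG15 and 0 in SNHG3. The transcript of SNHG3 has 3 exons, its last junction lies 23 nt after the stop, and 2086 nt follow the stop. Among 12416 other multi-exon long non-coding RNA genes read in the same way, 70.2% had at least 1 such junction and 10.8% had 4 or more, against 5 of the 10 hosts with 4 or more. GENCODE lists 29 transcripts of GAS5, 25 of SNHG1, 23 of SNHG5, 17 of SNHG12 and 10 of ZFAS1, intron-retaining forms included. A gene with more transcripts to pick from can show more junctions, and their number in the other genes was not compared. Which isoforms these cells make was not measured. The frames of 4 of the hosts called in the comparison are shown from start to stop, with the first ATG and the stop codon in capitals.
SNHG3: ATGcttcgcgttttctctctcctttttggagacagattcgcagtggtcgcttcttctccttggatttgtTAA
SNHG5: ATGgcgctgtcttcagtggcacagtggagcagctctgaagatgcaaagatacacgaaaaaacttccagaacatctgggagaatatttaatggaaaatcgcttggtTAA
SNHG15: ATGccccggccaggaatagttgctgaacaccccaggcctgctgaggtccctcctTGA
SNHG16: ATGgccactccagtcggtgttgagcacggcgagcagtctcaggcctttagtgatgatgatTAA

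Transcript starts were matched by symbol in the RefSeq promoter table (GRCh38.p14) for 8 of the 10 hosts. Shown for each is the window from 10 bases ahead of the start to 20 bases from it. Its longest run of C and T is in capitals. In the terminal oligopyrimidine class such a run begins at the first base of the RNA, whereas here it may lie anywhere in the window. In SNHG1, SNHG3 and SNHG16 the run begins after the start, and in SNHG8 it lies mostly ahead of it. The runs are therefore no count of members of that class. A run of at least 6 was present in 7 of the 8 windows, and in 30.4% of the 35116 RefSeq windows of the same length. The window without such a run is that of GAS5, with a longest run of 4 around the start RefSeq gives. The longest run, of 12, was in SNHG12. These starts are not those of the GENCODE transcripts whose frames were read above. For ZFAS1 and SNHG12 the RefSeq start lies 464 and 1113 nt downstream of the start of that transcript and past the first ATG, so an RNA from the RefSeq start lacks the frame counted above from its ATG. For GAS5, SNHG1, SNHG3 and SNHG16 it lies upstream (offsets of -163, -397, -37 and -28 nt), and for SNHG5 and SNHG8 it lies 15 and 4 nt downstream, ahead of the ATG.
GAS5 (chr1:173869026-173869055, minus strand): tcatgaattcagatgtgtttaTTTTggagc
ZFAS1 (chr20:49278632-49278661, plus strand): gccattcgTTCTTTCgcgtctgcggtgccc
SNHG1 (chr11:62855866-62855895, minus strand): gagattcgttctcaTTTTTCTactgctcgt
SNHG3 (chr1:28505933-28505962, plus strand): gtgagtttctgaTTCTCTaactgcgcatgc
SNHG5 (chr6:85678714-85678743, minus strand): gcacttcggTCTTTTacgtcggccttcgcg
SNHG8 (chr4:118278752-118278781, plus strand): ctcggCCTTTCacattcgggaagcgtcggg
SNHG12 (chr1:28581854-28581883, minus strand): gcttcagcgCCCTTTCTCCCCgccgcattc
SNHG16 (chr17:76557754-76557783, plus strand): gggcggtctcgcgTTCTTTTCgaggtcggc

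The snoRNAs inside the hosts are of both main kinds. C/D box snoRNAs guide methylation, and H/ACA box snoRNAs guide pseudouridylation or, for the SNORA73 pair of SNHG3, cleavage of the ribosomal RNA precursor. The examples below are the snoRNAs of the host that fell most and of the host that rose, with a C/D snoRNA of SNHG1 for contrast. Capitals mark the C box (TGATGA) and D box (CTGA) in SNORD30 and the ACA box in the other 2, with 3 bases after it. All are transcript sequences of GENCODE release 29.
SNORA73B (in SNHG3): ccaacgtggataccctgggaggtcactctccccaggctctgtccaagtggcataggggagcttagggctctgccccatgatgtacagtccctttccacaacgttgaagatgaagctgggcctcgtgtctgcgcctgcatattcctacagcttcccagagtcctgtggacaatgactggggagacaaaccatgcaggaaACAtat
SNORA9 (in SNHG15): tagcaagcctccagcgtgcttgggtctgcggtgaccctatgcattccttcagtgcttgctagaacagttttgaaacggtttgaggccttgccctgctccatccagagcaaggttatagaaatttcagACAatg
SNORD30 (in SNHG1): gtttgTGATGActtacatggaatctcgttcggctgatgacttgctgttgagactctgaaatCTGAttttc
Of GENCODE's C/D symbols 67.6% of 275 hold TGATGA within the first 20 bases and CTGA within the last 20, and 75.4% of 142 H/ACA symbols hold ACA at that distance from the end, reading the sense strand alone.

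Library totals ran from 600244 to 1179369 (pre-IP) and from 905926 to 2057647 (p-UPF1 IP). Their make-up differed: the TMM factors, which scale libraries on the bulk of genes, lay between 0.469 and 0.672 for pre-IP, between 1.533 and 2.045 for p-UPF1 IP. Of the 8070 genes tested, 711 were higher (8.81%) and 880 lower (10.9%) in p-UPF1 IP by TMM. With library totals alone 4874 (60.4%) were higher and 156 (1.93%) lower. The median over tested genes was 0.10 with TMM and 1.63 with totals, as log2 fold changes. A change given by TMM is therefore a change relative to most other RNAs, and fewer molecules of an RNA cannot be told apart from more of the others. Of the fixed HEK293T marker genes VIM and CKB were counted in every library, LIN28B was at 0 in pre-IP replicate 4, NES had 3 counts in pre-IP against 8 with p-UPF1, and PAX2 had 0 and 9. The 11 markers of blood, liver, fibroblasts, muscle and epidermis had at most 14 counts in any library.

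By TMM, 1 of the 10 hosts rose with p-UPF1, 4 fell and 5 did not pass the test. SNHG15 rose by 1.90 and SNHG3 fell by 2.99 on the log2 scale. SNHG5, SNHG6 and SNHG16 fell, with log2 fold changes of -0.95, -1.01 and -0.80, and GAS5, SNHG1, SNHG12, ZFAS1 and SNHG8 lay between -0.39 and 0.10. The share called higher among the hosts can be read against the 8.81% of all tested genes, and the share called lower against 10.9%, or 19.7% in either direction. The CPM values (counts scaled by TMM to a common library size) of the groups did not overlap for these same 5 hosts, as for 39.7% of tested genes (21.9% higher, 17.7% lower). The median log2 fold change of the hosts was -0.36, that of all tested genes 0.10. Calls rest on edgeR's quasi-likelihood F-test with Benjamini-Hochberg adjustment over all tested genes at 0.05.

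**Figure D1:**
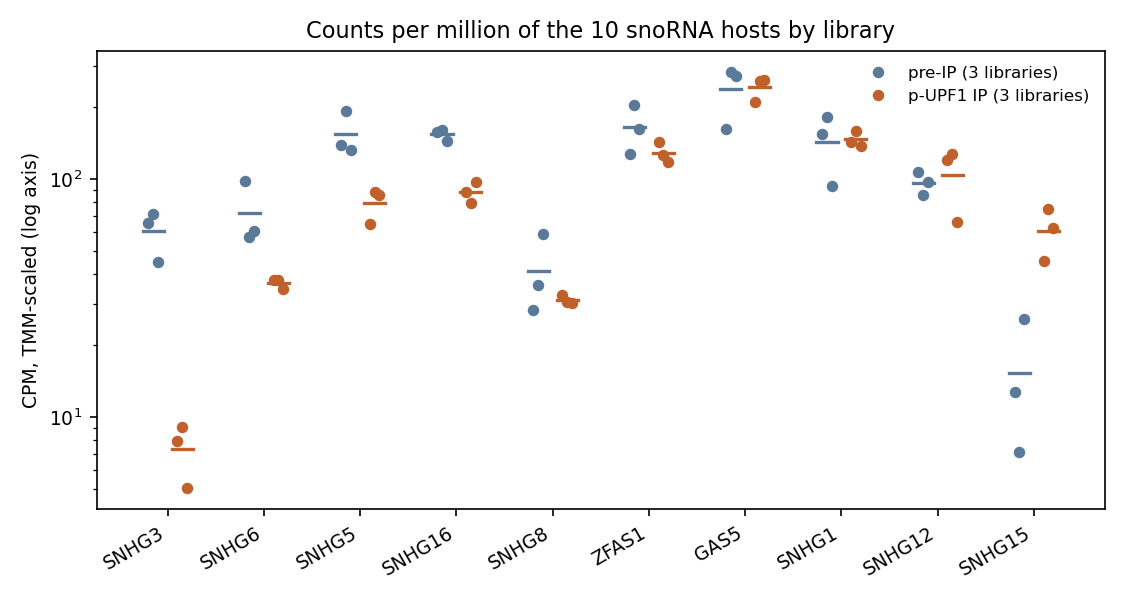
CPM (TMM-scaled, log axis) of each host in each library, with a point per library and a bar at the group mean, hosts ordered by log2 fold change. The groups do not overlap for SNHG3, SNHG5, SNHG6 and SNHG16, which were lower in p-UPF1 IP, and for SNHG15, which was higher.

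SNHG15, the host of SNORA9, was the host with the highest log2 fold change. Its counts were 10, 2 and 15 in the pre-IP libraries (replicates 1, 4 and 7, the order kept below) against 148, 205 and 111 with p-UPF1 (replicates 3, 6 and 9). All p-UPF1 IP libraries lay above all pre-IP libraries, and the lowest pre-IP value was in the shallowest library. Scaled by TMM these counts were 12.8, 7.16 and 25.9 CPM against 45.2, 74.6 and 62.1 CPM. The group means were 15.3 ± 9.62 and 60.6 ± 14.8 CPM (SD, n = 3 each), the log2 fold change was 1.90 (SE 0.45, edgeR adjusted p = 0.00704), and 92.9% of tested genes had a lower log2 fold change. With library totals alone it was 3.41 (edgeR adjusted p = 3.62e-05), and without p-UPF1 IP replicate 6 the TMM call was lost (1.71, edgeR adjusted p = 0.0566). SNHG15 reached the filter's level, 9.415 CPM by library totals, in 1 of 3 pre-IP and 3 of 3 p-UPF1 IP libraries, so it passed the filter through the group in which it is high. The other 9 hosts reached it in all 6 libraries.

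SNHG3, the host of SNORA73A and SNORA73B, was the only host lower on both scales. Its counts were 51, 20 and 26 in pre-IP against 26, 25 and 9 with p-UPF1. As CPM these were 65.3, 71.6 and 44.9 against 7.94, 9.10 and 5.03, so that the highest p-UPF1 IP value was far below the lowest pre-IP value. The means were 60.6 ± 13.9 and 7.36 ± 2.095 CPM (SD, n = 3 each), the log2 fold change was -2.99 (SE 0.45, edgeR adjusted p = 0.000261), and 1.28% of tested genes had a lower one. With library totals alone it was -1.48 (edgeR adjusted p = 0.0234), a direction found for 1.93% of tested genes at that threshold. The call held without each library in turn (log2 fold change -3.16 to -2.79, edgeR adjusted p at most 0.00314). All 3 GENCODE transcripts of SNHG3 overlap the protein-coding gene RCC1 on the same strand, and how the authors' counting split reads of that overlap is not given in the sources used here. RCC1, a nucleotide exchange factor of the GTPase RAN, had 64, 19 and 82 counts in pre-IP against 306, 157 and 113 with p-UPF1 (log2 fold change -0.47, edgeR adjusted p = 0.359). The part of this overlap in the SNHG3 values was not tested.

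SNHG5, SNHG6 and SNHG16 formed a middle group with smaller decreases by TMM. SNHG5, the host of SNORD50A and SNORD50B, had 109, 54 and 77 counts in pre-IP against 211, 243 and 154 with p-UPF1, or 155 ± 33.1 and 79.7 ± 13.2 CPM (SD, n = 3 each). Its log2 fold change was -0.95 (SE 0.29, edgeR adjusted p = 0.031), and the CPM of the groups did not overlap. SNHG6, the host of SNORD87, had 77, 16 and 35 counts against 123, 103 and 62, or 72.1 ± 22.9 and 36.6 ± 1.65 CPM. Pre-IP replicate 1, at 98.5 CPM, stood above the other 2 pre-IP libraries at 57.3 and 60.5 CPM, while the p-UPF1 IP libraries lay between 34.7 and 37.6 CPM. The log2 fold change of SNHG6 was -1.01 (SE 0.34, edgeR adjusted p = 0.0451). SNHG16, the host of SNORD1A, SNORD1B and SNORD1C, had 123, 45 and 84 counts against 290, 219 and 174, or 155 ± 8.36 and 88.5 ± 8.80 CPM. Its spread was small in both groups, and its log2 fold change was -0.80 (SE 0.28, edgeR adjusted p = 0.0489).

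These 3 decreases depend on the scale, the test, the filter and the libraries. With library totals alone the log2 fold changes were 0.64 for SNHG5, 0.51 for SNHG6 and 0.77 for SNHG16, above 0 and not past the threshold (edgeR adjusted p = 0.117, 0.287 and 0.0635). SNHG16 was not called with any library left out (edgeR adjusted p from 0.0728 without pre-IP replicate 7 to 0.164 without p-UPF1 IP replicate 6). The call of SNHG5 was lost when pre-IP replicate 4 was left out (0.0898), and when p-UPF1 IP replicate 3 (0.158), 6 (0.0685) or 9 (0.0869) was, all edgeR adjusted p. SNHG6 lost its call when pre-IP replicate 1 was left out (0.207), and when p-UPF1 IP replicate 3 (0.144), 6 (0.124) or 9 (0.162) was, again as edgeR adjusted p. With no filter on low counts none of the 3 was called (edgeR adjusted p = 0.138, 0.156 and 0.254). SNHG6 was also not called by DESeq2 (adjusted p = 0.0785) or with upper-quartile scaling (edgeR adjusted p = 0.0508). SNHG16 was also not called by DESeq2 (adjusted p = 0.0526), with RLE scaling (edgeR adjusted p = 0.0567) or with upper-quartile scaling (edgeR adjusted p = 0.0605).

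The other 5 hosts did not pass the test by TMM. GAS5, which holds 10 snoRNAs and is a well known NMD-sensitive host, had 127, 79 and 157 counts in pre-IP against 693, 712 and 466 with p-UPF1. As CPM these were 163, 283 and 271 against 212, 259 and 261, so the p-UPF1 IP libraries lay inside the range of the pre-IP libraries. SNHG1, with 8 snoRNAs, had 121, 51 and 54 counts against 469, 438 and 247, and 144 ± 45.7 and 147 ± 11.1 CPM (log2 fold change 0.05, SE 0.30). SNHG12, with 4 snoRNAs, had 84, 24 and 56 counts against 392, 350 and 118, and 96.7 ± 10.8 and 104 ± 33.5 CPM (log2 fold change 0.10, SE 0.32). Within the IP, replicate 9 of SNHG12 was at 66.0 CPM and the other 2 at 120 and 127 CPM. ZFAS1, the host of the SNORD12 family and overlapped by ZNFX1 on the other strand, had 100, 57 and 94 counts against 469, 347 and 211. Its CPM values, 165 ± 38.1 and 129 ± 12.9, overlapped between the groups (log2 fold change -0.33, SE 0.29). SNHG8, the host of SNORA24, was thinly counted, with 22, 10 and 34 counts against 107, 84 and 54 (log2 fold change -0.39, SE 0.40). The adjusted p of these 5 hosts ran from 0.448 (ZFAS1) to 0.941 (GAS5) in edgeR's test, which does not show that their levels were equal.

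**Figure D2:**
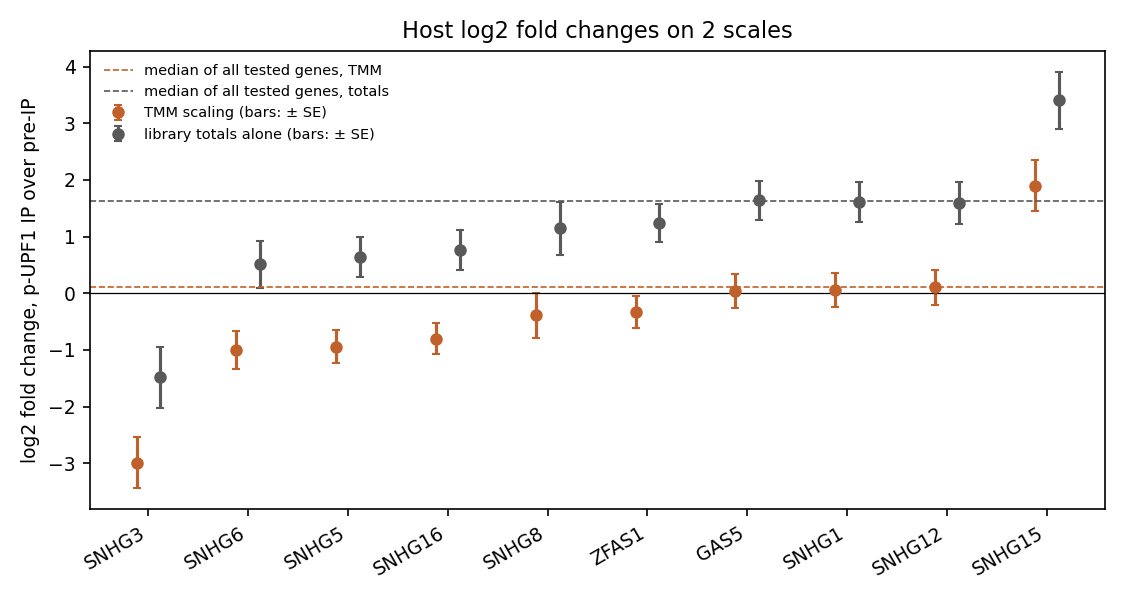
Log2 fold change of each host by TMM and with library totals alone. Bars are standard errors derived from the F statistic of edgeR's test. Dashed lines mark the median of all 8070 tested genes on each scale. GAS5, SNHG1 and SNHG12 lie near the median on both scales, SNHG15 lies above it, and SNHG3 is the only host below 0 on both.

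On the scale of library totals the same counts gave 6 hosts higher and 1 lower. GAS5 was at 135 ± 29.4 CPM by library totals in pre-IP against 413 ± 91.6 with p-UPF1 (log2 fold change 1.64, edgeR adjusted p = 0.000719). SNHG1, SNHG12, ZFAS1 and SNHG8 had log2 fold changes of 1.62, 1.59, 1.24 and 1.146 on that scale, and these 4 were past the threshold, as was SNHG15. Because 60.4% of all tested genes were called higher on this scale, 6 of 10 is the background share. All 10 hosts together took 0.0655% ± 0.00526 of counts in pre-IP against 0.156% ± 0.0187 with p-UPF1 (SD, n = 3 each). The libraries of the groups did not overlap, at 0.0596% to 0.0699% and 0.142% to 0.177% (two-sided exact permutation p = 0.1, which is the lowest 3 libraries a group can reach). By library totals the median log2 fold change was 1.195 for the hosts, below the 1.63 of all tested genes. The mean share of the HEK293T markers also rose without overlap (0.02735% to 0.1209%). So did those of the further non-coding hosts (0.02565% to 0.07002%) and protein-coding hosts (1.117% to 2.497%) described below. That of the snoRNAs inside the hosts fell (8.51% to 5.779%). A higher share was thus not particular to the 10 hosts.

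A measure that needs no scaling between libraries is the share of each host in the summed counts of the 10 hosts within a library. Because these shares add up to the whole, lower shares of some hosts mean higher shares of others. A higher share is therefore relative to the other hosts alone. By TMM, GAS5 and SNHG1 had log2 fold changes of 0.04 and 0.05. SNHG3 took 6.19%, 5.59% and 4.11% of that sum in pre-IP against 0.888%, 0.917% and 0.560% with p-UPF1. SNHG15 took 1.21%, 0.559% and 2.37% in pre-IP against 5.05%, 7.52% and 6.91% with p-UPF1. The mean share of SNHG15 was 4.70 times as high with p-UPF1, and that of SNHG3 was 0.149 times its pre-IP value. The order of these 2 count shares turned over. These shares were not divided by transcript length. Per kilobase, the pre-IP libraries of SNHG3 (20.4 to 32.5 CPM) and SNHG15 (7.29 to 26.4 CPM) overlapped. The share of SNHG5 went from 13.5% ± 1.47 to 8.57% ± 1.23 and that of SNHG16 from 13.6% ± 1.21 to 9.59% ± 1.43 (SD, n = 3 each). SNHG6 was at 6.45% ± 2.56 and 3.95% ± 0.224, and SNHG1 at 12.5% ± 3.43 and 15.8% ± 0.384. These last 2 differences rest in part on 1 library each: that of SNHG6 went from -2.50 to -1.06 percentage points without pre-IP replicate 1, and that of SNHG1 from 3.33 to 1.36 without pre-IP replicate 7. For these 6 hosts the libraries of the groups did not overlap, and each had a two-sided exact permutation p = 0.1, the smallest possible. Among all tested genes, 42.9% had groups that did not overlap in their ratio to the same sum (29.9% higher, 13% lower), against 2 hosts higher and 4 lower. GAS5 was the most counted host in all 6 libraries, with 20.8% ± 4.85 and 26.3% ± 2.68 of the sum (two-sided exact permutation p = 0.2), and its groups overlapped, as did those of ZFAS1, SNHG8 and SNHG12. Its difference of 5.49 percentage points was 2.81 without pre-IP replicate 1. With 3 libraries against 3 no p could pass 0.05 for any of the 10 hosts.

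**Figure D3:**
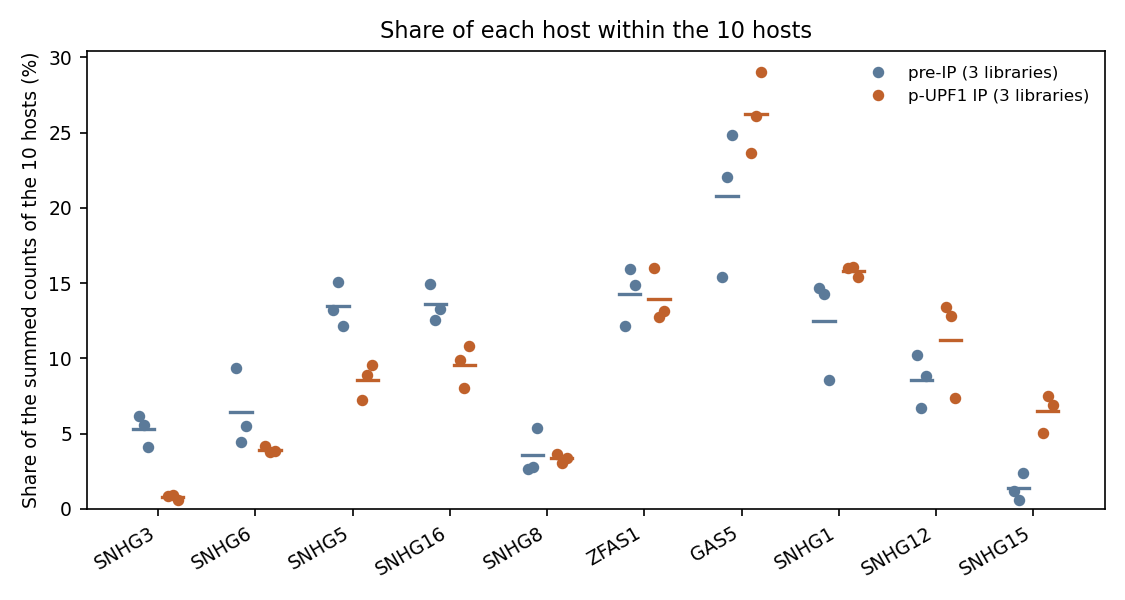
Share of each host (%) in the summed counts of the 10 hosts, with a point per library and a bar at the group mean. SNHG15 sits between 0.559% and 2.37% in pre-IP against between 5.05% and 7.52% with p-UPF1, and SNHG3 between 4.11% and 6.19% and between 0.560% and 0.917%.

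Levels can be compared between hosts only per length, here as CPM per kilobase of the transcript used above. GAS5 was highest in both groups, at 330 in pre-IP against 337 with p-UPF1, and SNHG1 followed at 244 and 250. In pre-IP the order went on with SNHG5 (190), ZFAS1 (153), SNHG6 (113), SNHG8 (87.0), SNHG16 (79.4), SNHG12 (51.7), SNHG3 (27.5) and SNHG15 (15.6). The library values of neighbours in that order overlapped for each pair except SNHG16 with SNHG12 and SNHG12 with SNHG3. In p-UPF1 IP the order after SNHG1 was ZFAS1 (120), SNHG5 (97.4), SNHG8 (66.3), SNHG15 (61.8), SNHG6 (57.3), SNHG12 (55.8), SNHG16 (45.5) and SNHG3 (3.34). SNHG15 thus went from the last place to the sixth, and its library values of 46.03 to 75.99 overlapped those of SNHG8 and SNHG6. Neighbours from SNHG8 to SNHG16 overlapped in p-UPF1 IP, and the other neighbours did not. SNHG3 was last with p-UPF1, and its highest library, at 4.135, was below the lowest of any other host, 35.3 for SNHG12. The transcript lengths are those of 1 isoform each, from 470 nt (SNHG8) to 2201 nt (SNHG3), and those of ZFAS1 and SNHG12 include the stretch ahead of the RefSeq start.

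Most snoRNAs inside the hosts were lower in p-UPF1 IP by TMM. Of 35 snoRNAs listed for the 10 hosts, 34 were tested (SNORA73A was not analysed here), and RefSeq places all 35 inside their hosts. By edgeR's test with TMM 30 of the 34 fell and 0 rose (33 and 0 at an unadjusted p under 0.05), with a median log2 fold change of -1.91 (all tested genes 0.10, 10.9% called lower). No snoRNA was called higher by DESeq2 or limma-voom either. For 33 of the 34 the groups did not overlap, against 17.7% of tested genes that did not overlap in that direction. With library totals alone the median was -0.40 and 7 of the 34 were called lower.

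Within GAS5 all 10 snoRNAs fell by TMM, and SNORD75 stood apart. SNORD75 had 6796, 4188 and 7037 counts in pre-IP against 2017, 2490 and 538 with p-UPF1, a log2 fold change of -4.30 (SE 0.63, edgeR adjusted p = 0.000216). The other 9 lay between -2.57 (SNORD79) and -1.73 (SNORD47). SNORD78, the most counted, had 23414, 6606 and 8348 counts against 14699, 15357 and 2864 (-2.54, SE 0.69, edgeR adjusted p = 0.0153). SNORD75 was also lower with library totals alone (-2.76, edgeR adjusted p = 4.55e-05). So were SNORD77, SNORD78 and SNORD79 of GAS5, by less (-0.94, -1.07 and -1.05, edgeR adjusted p = 0.0311, 0.0494 and 0.0289). Within SNHG1, 5 of 8 fell, from SNORD27 (-2.40) to SNORD31 (-1.58). SNORD22, SNORD25 and SNORD30 did not pass, with log2 fold changes of -0.69, -1.35 and -1.78. SNORD22 was the only snoRNA of the 34 whose groups overlapped. The 3 snoRNAs of ZFAS1 fell (-2.79 to -2.26), as did both of SNHG5 (-1.92 and -1.68) and the 3 of SNHG16 (-2.101 to -1.38). In SNHG12, SNORA16A, SNORA61 and SNORD99 fell (-2.18, -2.11 and -1.28) and SNORA44 had -1.36 (edgeR adjusted p = 0.113). The hosts of 1 tested snoRNA were SNHG3 (SNORA73B, -2.06), SNHG15 (SNORA9, -1.76), SNHG8 (SNORA24, -1.36) and SNHG6 (SNORD87, -1.29), and all 4 of these snoRNAs fell.

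**Figure D4:**
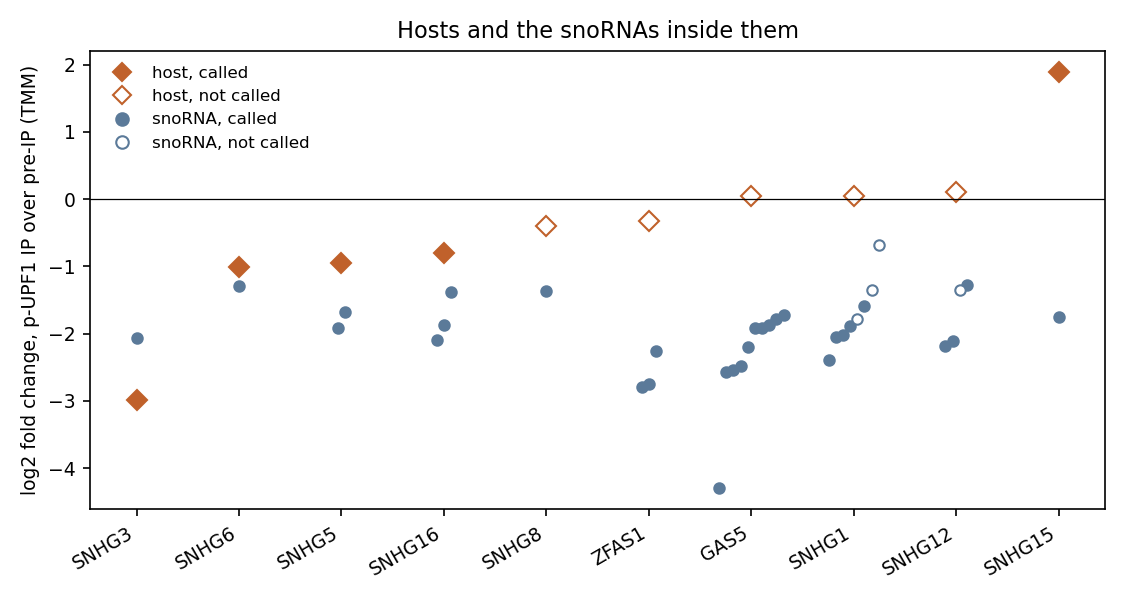
Log2 fold changes (TMM, p-UPF1 IP over pre-IP) of the 10 hosts (diamonds) and of the 34 snoRNAs inside them (circles), filled where the test was passed. Every circle lies below 0, SNORD75 of GAS5 is the lowest at -4.30, and SNHG3 is the only host whose diamond lies below its snoRNA.

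The 2 products of a precursor can be set against each other within a library, which needs no scaling. For GAS5 the summed snoRNA counts were 62090, 26075 and 39071 in pre-IP against 57897, 58850 and 12066 with p-UPF1. That is 341 snoRNA counts for each GAS5 count in pre-IP against 56.3 with p-UPF1, as geometric means. The log2 ratio of GAS5 to its snoRNAs was -8.41 ± 0.49 and -5.81 ± 0.97 (SD, n = 3 each, difference 2.60, two-sided exact permutation p = 0.1). SNHG15 had the largest difference, 3.83, from -7.79 ± 1.13 to -3.95 ± 0.69, as the ratio to SNORA9. Its pre-IP side rests on host counts of 10, 2 and 15. The difference of SNHG15 was 3.23 without pre-IP replicate 4 and 4.35 without pre-IP replicate 7. ZFAS1 differed by 2.55, SNHG1 by 1.90, SNHG12 by 1.68, SNHG8 by 1.09 and SNHG16 by 1.08, and the libraries of the groups did not overlap for any of these. SNHG5 (0.92) and SNHG6 (0.53) had groups that overlapped. Without p-UPF1 IP replicate 9 the differences of SNHG16, SNHG5 and SNHG6 were 0.57, 0.44 and 0.15. That of SNHG6 was 0.82 without pre-IP replicate 1 and 0.95 without p-UPF1 IP replicate 6. SNHG3 was the host with a difference below 0, -0.87, from -6.77 ± 0.45 to -7.64 ± 0.56, and its groups overlapped too (two-sided exact permutation p = 0.2). The ratio of SNHG3 is to SNORA73B alone, since SNORA73A was not analysed here. In all, 7 of the 10 hosts were higher with no overlap, and so were 76% of all tested genes in their ratio to the 34 snoRNAs (1.19% lower, 77.1% either way), so this count is near the background. The snoRNA share itself varied within the IP, from 3.37% of counts in replicate 9 to 7.58% in replicate 6, and within the IP replicate 9 had the highest ratio for all 10 hosts.

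**Figure D5:**
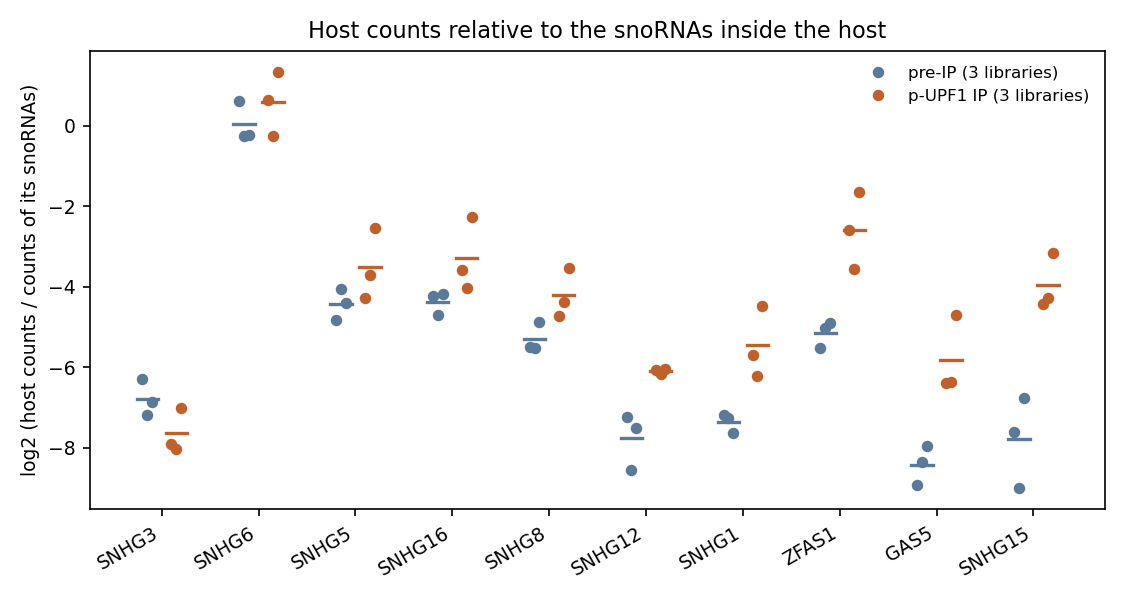
Log2 ratio of host counts to the summed counts of the snoRNAs inside that host (0.5 added to each), with a point per library and a bar at the group mean. For SNHG3 the ratio is to SNORA73B alone. The ratio is higher in p-UPF1 IP without overlap for 7 hosts, and SNHG3 is the only host with a lower mean.

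How far host counts could include snoRNA reads depends on an annotation that is not given in the sources used here. In GENCODE release 29, 22 of the 35 snoRNAs are found by symbol inside their hosts, and 17 of these lie over an exon of at least 1 host transcript. No snoRNA of GAS5 was found by symbol, so this overlap was not read for GAS5. The snoRNA counts exceeded those of the host in every library for all hosts but SNHG6, where SNORD87 had 50, 19 and 41 counts in pre-IP against 78, 123 and 24 with p-UPF1. The part of such reads in the host counts was not tested.

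Other snoRNA hosts were described from lists. Of 21 further non-coding hosts listed, 5 were tested, and 0 rose or fell by edgeR's test with TMM (median log2 fold change 0.03). At an unadjusted p under 0.05, 0 were higher and 1 was lower. DESeq2 and limma-voom called 0 as well. LRRC75A-AS1, the most counted, had 204, 89 and 205 counts in pre-IP against 868, 695 and 572 with p-UPF1 (log2 fold change -0.15, edgeR adjusted p = 0.758). SNHG7 had 19, 19 and 12 counts against 181, 240 and 81 (0.88, edgeR adjusted p = 0.174). Of 48 protein-coding hosts listed, 43 were tested, of which 2 rose and 13 fell, with a median log2 fold change of -0.53 (8.81% and 10.9% of all tested genes). By library totals 27 of them were called higher and 4 lower, with a median of 1.06. The genes named next were chosen after their values were seen. The risers were TNPO2, a nuclear import receptor (1.67, edgeR adjusted p = 0.0217), and IPO7, another one (1.10, edgeR adjusted p = 0.021). TNPO2, with 8, 2 and 21 counts against 246, 141 and 96, reached the filter's level in 1 of 3 pre-IP libraries, so it too passed through the group in which it is high. The 4 hosts called lower on both scales were the ribosomal protein genes RPS12 (-3.50, edgeR adjusted p = 3.04e-06), RPL39 (-3.20, 7.1e-06), RPL12 (-2.63, 3.03e-05) and RPL23 (-2.44, 0.000212). The other 9 that fell by TMM, 8 of them ribosomal protein genes and EEF1B2, lay between -2.03 and -1.01. EEF2, an elongation factor, and the ribosomal protein gene RPL5 were the most counted and did not pass (1.02 and -1.09, edgeR adjusted p = 0.0807 and 0.0721). The differences between these lists and the 10 hosts were not tested.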

How the data were processed

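RNA-seq counts came from 6 HEK293T libraries, 3 pre-IP and 3 p-UPF1 IP. The authors deposited raw counts of reads per gene symbol. The authors' tools, per the submitters' processing notes, included STAR 2.5.2b, cutadapt 1.15 and Subread 1.5.0p3 (featureCounts), with hg19 as the build. Neither an annotation nor settings for strand or multiply matching reads are stated there, so overlapping genes are uncertain. Genes were filtered with filterByExpr (minimum count 10) and tested on the whole table with edgeR 4.0.16 (TMM, quasi-likelihood F-test, Benjamini-Hochberg at 0.05; R 4.3.3). The SE printed with an edgeR log2 fold change was derived from the test. It is the absolute log2 fold change divided by the square root of the F statistic. limma 3.58.1 (voom) and DESeq2 1.42.0 were alternatives, beside other scalings and filters and leaving out each library. On simulated data the test recovered 88.2% of 8-fold changes but only 14.5% of 2-fold changes, so it misses most changes of the smaller size. Shares and ratios within a library were compared by two-sided exact permutation tests. Replicates differed by more than sampling noise (chi-square per degree of freedom 10.7 to 21.3). Sequences and transcript structures are from GENCODE release 29 and RefSeq GRCh38.p14, a build other than that of the counts. The members and lists were chosen with earlier results of these data known. Named were all members, their snoRNAs, and, of each further host list, the 2 most counted and any called among the 5 most counted; protein-coding hosts named outside this rule are marked as chosen after their values were seen.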

Additional observations from a re-analysis of the deposited data

How the results depend on the processing

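With library totals alone, 6 hosts were higher and 1 lower, 4 further non-coding hosts and 27 protein-coding hosts were higher, 4 protein-coding hosts and 7 snoRNAs were lower, and 4874 of all genes were higher and 156 lower. On that scale ZFAS1 (1.24), SNHG5 (0.64), SNHG6 (0.51), SNHG8 (1.146) and SNHG16 (0.77) changed sign. Lower hosts numbered 2 with upper-quartile scaling, 1 with no filter and 2 by DESeq2. Higher protein-coding hosts numbered 5 by DESeq2, 4 with small structured RNAs left out and 4 with the replicate block. With no filter 1101 genes were higher. Near 0, GAS5 (-0.0535) and SNHG1 (-0.0371) changed sign at a minimum count of 30, where SNHG3 was filtered out, and SNHG12 did with limma-voom (-0.0154). The share of ZFAS1 differed by 0.719 percentage points with GAS5 left out of the sum. The cause was not tested. Leaving out each library gave 0 to 1 higher and 1 to 3 lower hosts, 0 to 1 higher non-coding hosts, 0 to 2 higher and 7 to 14 lower protein-coding hosts, 19 to 30 lower snoRNAs, and 273 to 795 higher and 518 to 833 lower genes. Log2 fold changes then spanned 0 for GAS5 (-0.18 to 0.21), SNHG1 (-0.16 to 0.27), SNHG8 (-0.64 to 0.0329) and SNHG12 (-0.0727 to 0.35), and share differences for ZFAS1 (-1.44 to 0.457 percentage points) and SNHG8 (-0.721 to 0.635). Of 149 alternatives for host log2 fold changes, 107 kept direction and side of the threshold, 27 lost a call, 5 gained one and 15 changed sign (3 of those lost and 2 of those gained among them). The 70 for the ratios kept their sign; their exact p could not reach 0.05 in any setting. The label numbers differ between groups. Taken as triplets (1 with 3, 4 with 6, 7 with 9), deviations correlated at 0.09, 0.17 and 0.10. Correlations for other combinations of libraries were not computed, so these values cannot decide whether the libraries were paired. The main test treated the libraries as unpaired. Of the hosts called, SNHG6 lost its call with these triplets as the replicate block (-0.96, edgeR adjusted p = 0.0585).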
